A study of Mus musculus with 2 samples.

Results

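The 7 non-coding host genes of small nucleolar RNAs (snoRNAs) described here are Gas5, Snhg1, Snhg3, Snhg5, Snhg6, Snhg8 and Snhg12. They were taken from 49939 RefSeq genes on chromosomes 1 to 19, X and Y, as Gas5 and Snhg transcripts that carry snoRNAs in their introns and encode no conserved protein. Peaks of TOBF1 were assigned to a host when the peak's midpoint lay in the gene's RefSeq span or within 5 kb of it. By this rule all 7 hosts had a peak, and they held 20 of the 12181 peaks in the list. The peaks came from 1 ChIP-Seq library of R1/E mouse embryonic stem (ES) cells, grown in serum with LIF and carrying TOBF1 (A830080D01Rik) tagged on a bacterial artificial chromosome. Chromatin was crosslinked with formaldehyde and DSG, and the tag was pulled down through GFP. An input library of the same tagged cells, made without antibody, was not analysed here. Each group has a single library, so values carry no replicate error, no test over samples was possible, and the reads behind each peak are unknown. Expression was not measured, so neither the ES cell identity nor the activity of the hosts was checked, and whether active genes would give such signal regardless of the antibody was not tested.

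SnoRNAs guide chemical changes in other RNAs, chiefly ribosomal RNA: those of the box C/D class guide 2'-O-methylation and those of the box H/ACA class pseudouridylation. In mammals most are cut out of introns during splicing. In the hosts described here the spliced exons form a non-coding RNA, and for several of them, Gas5 among them, this RNA is held low by nonsense-mediated decay (NMD). Such hosts, like ribosomal protein genes, often begin transcription in a run of pyrimidines, the 5'-terminal oligopyrimidine (TOP) start.

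The start sites are shown because the pyrimidines around them, which the assignment of peaks did not use, can be read against the TOP form. RefSeq windows of the GRCm38.p6 build, whose chromosome positions are those of mm10, were found for 6 of the 7 hosts, and Snhg6 was not among them. Gas5 had a pair of windows, and the upstream one lies inside the neighbouring gene Zbtb37 and is not printed. Each line gives 50 bases before and 50 from the annotated start site onward, 5' to 3' on the strand of the gene. Capitals mark the longest run of C and T that begins within 10 bases of the start site.
Gas5, chr1:161035116-161035215, plus strand: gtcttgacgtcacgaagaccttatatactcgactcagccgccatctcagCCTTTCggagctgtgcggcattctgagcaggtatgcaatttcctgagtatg
Snhg1, chr19:8723437-8723536, plus strand: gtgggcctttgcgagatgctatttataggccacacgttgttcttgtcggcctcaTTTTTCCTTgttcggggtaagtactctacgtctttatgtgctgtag
Snhg12, chr4:132308628-132308727, plus strand: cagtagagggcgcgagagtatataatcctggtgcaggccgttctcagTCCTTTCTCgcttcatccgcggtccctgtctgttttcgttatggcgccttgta
Snhg3, chr4:132353637-132353736, minus strand: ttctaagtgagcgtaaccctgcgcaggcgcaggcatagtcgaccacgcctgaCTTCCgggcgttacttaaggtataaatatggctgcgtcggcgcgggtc
Snhg5, chr9:88522848-88522947, minus strand: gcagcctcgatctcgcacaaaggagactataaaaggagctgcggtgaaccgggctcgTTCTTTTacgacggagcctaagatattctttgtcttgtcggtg
Snhg8, chr3:123508287-123508386, minus strand: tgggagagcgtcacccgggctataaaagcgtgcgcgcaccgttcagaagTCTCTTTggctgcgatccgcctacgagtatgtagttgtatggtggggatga

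The run was 9 bases long at Snhg1 and Snhg12, 7 at Snhg5 and Snhg8, 6 at the printed start of Gas5 and 5 at Snhg3. At the unprinted start of Gas5 it was 3. The run spanned the annotated start site at Gas5, Snhg8 and Snhg12, while at Snhg3, Snhg1 and Snhg5 it began at base 3, 5 and 8 of the transcript. Over all 32851 windows the median was 4, and 36.7% had a run of 5 or more, 13.9% of 7 or more. The measure was chosen after the sequences were seen, so these shares describe the hosts and support nothing. The same holds for TATAAA, found on either strand in the windows of Snhg1, Snhg3, Snhg5 and Snhg8 (13.6% of all windows), and TATATA, found at Gas5 and Snhg12 (5.67%). The match lay 23 to 32 bases before the start site in all of these except Snhg3, where it began at base 23 after it.

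The other motifs were searched over the whole window of 250 bases before to 50 after the start, on both strands. GGGCGG (the GC box) occurred in 5 of the 7 host windows (35.7% of all windows). These were both windows of Gas5 and those of Snhg1, Snhg5 and Snhg8. CCAAT occurred in 3 (37.4%) and CCGGAAG, bound by ETS factors, in 1, that of Snhg3 (8.86%). None of the 7 windows held the octamer ATGCAAAT (1.74%), the ESRRB motif TCAAGGTCA (0.423%), the E-box CACGTG (7.15%), AAGATGGC of YY1 (2.75%), the NRF1 palindrome (0.971%) or the palindrome of the ZBTB33 type (0.466%). No peak midpoint lay in a host's window. A peak reached 3 bases into the printed window of Gas5, and another 10 bases into that of Snhg5.

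Where the peaks lay was alike in all hosts with a known strand: in the gene or beyond its 3' end, and never before its 5' end. The strand came from the RefSeq windows, for 3 hosts on the plus and 3 on the minus strand. Of 19 peaks at these 6 hosts, 9 had their midpoint in the span, 10 lay beyond the 3' end and 0 lay in the 5 kb before the 5' end. A peak beyond the 3' end was present at 6 of 6 hosts, and in 5 of 6 it was the host's highest. Among 27024 genes with a strand, 3.15% had a peak within 5 kb beyond the 3' end, 11.0% in the span and 3.22% within 5 kb before the 5' end. Among the 5904 that were no longer than Gas5, the longest host, the shares were 3.69%, 1.78% and 3.01%. Among genes with a strand and a peak, the highest peak lay beyond the 3' end in 16.6%. The share was 45.5% of those no longer than Gas5, and 13 of 13 ribosomal protein genes that hold a snoRNA gene. The 3' peaks of the 6 hosts lay between 0.433 and 4.88 kb past the gene end, with a median of 1.44 kb.

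**Figure D1:**
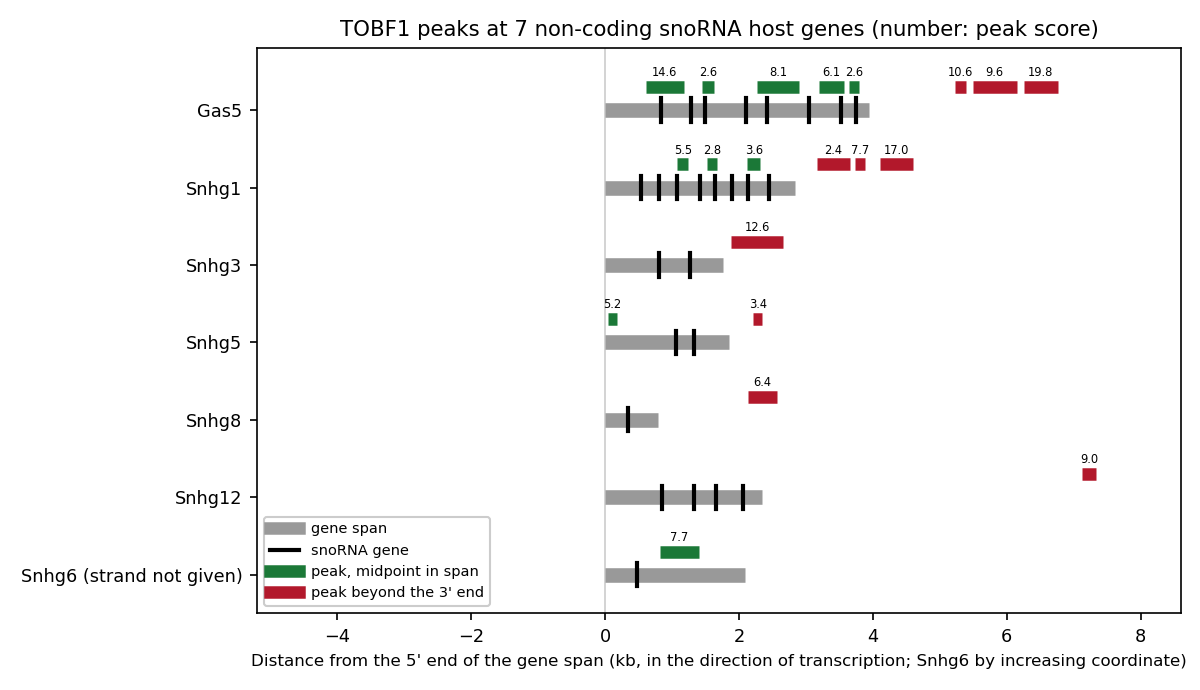
Peaks at each host, placed by distance in kb from the 5' end of the gene span in the direction of transcription; grey bars are gene spans, black ticks snoRNA genes, coloured bars peaks with their score. The 10 red peaks follow the 3' ends of 6 hosts, the space left of 0 is empty at those hosts, and Snhg6, whose strand was not given, is drawn by increasing coordinate.

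Gas5, named for its rise in growth-arrested cells, carried the most peaks (chromosome 1, 161034601 to 161038539, plus strand). It had 8 peaks over 6.16 kb, 5 in the span and 3 beyond its 3' end. In the direction of transcription, the peaks in the span scored 14.6, 2.62, 8.12, 6.05 and 2.65, where the score is the authors' own value per peak and is read as −log10 of a q-value. Those past the 3' end scored 10.6, 9.56 and 19.8, at 1.38, 1.88 and 2.57 kb from it. The highest pair of scores thus stood at the outer edges of the region: the first peak of the span and the last one past the gene. The first peak (161035213 to 161035776) was centred 328 bp after the printed start site, and the last was the highest of all 20 (161040851 to 161041369). Together the peaks covered 48.2% of the Gas5 span. The first 264 bp of Gas5 overlap Zbtb37, a zinc finger gene on the minus strand, where no peak was assigned.

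Snhg1, host of Snord22 (the U22 snoRNA, needed for maturation of 18S ribosomal RNA), had the next largest group (chromosome 19, 8723487 to 8726326, plus strand). Its 6 peaks spread over 3.52 kb. In the span they scored 5.54, 2.77 and 3.60. Past the 3' end they scored 2.42, 7.65 and 17.0, at 0.572, 0.964 and 1.51 kb from it. The score was thus highest in the peak farthest from the start (8727586 to 8728080), as at Gas5. No annotated gene overlapped the 3 peaks past the end. Slc3a2, which encodes a subunit of amino acid transporters, runs the other way from a start 117 bp before Snhg1, and the space between them held no peak.

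Groups of this size were rare. At 6 or more peaks in the span or within 5 kb, Gas5 and Snhg1 stood among 5 lncRNA genes no longer than Gas5, of 3409 such genes. The others were Zfas1 and 2410006H16Rik, each with 3 annotated snoRNA genes in its span, and Gm51701 with 0. Among lncRNA genes of any length, 2 of 12727 had 8 or more peaks. The groups also depend on how enrichment is divided: with peaks merged at gaps up to 1 kb, Gas5 kept 2 and Snhg1 1.

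Each of the 8 peaks in the spans of Gas5 and Snhg1 overlapped 1 annotated snoRNA gene, in whole or in part. Of the 8 snoRNA genes in Gas5, 5 were overlapped, among them Snord47, a box C/D snoRNA. Of the 8 in Snhg1, 3 were overlapped, and Snord22 was not. Snord47 aside, the 7 overlapped snoRNA genes carry only LOC identifiers. None of the 10 snoRNA genes in the other 5 hosts was overlapped. In all, 8 of 26 snoRNA genes in the hosts were overlapped (30.8%, exact 95% interval 14.3 to 51.8%). All of them lie in Gas5 and Snhg1, so the interval does not measure the spread between hosts. The share was 1.19% of all 1340 annotated snoRNA genes and 0.609% of those outside the hosts. These backgrounds are not like for like, since 12.1% of all annotated snoRNA genes had a peak midpoint within 5 kb. SnoRNA genes lie close together in these hosts: they filled 14.5% of the Gas5 span and 21.8% of the Snhg1 span, so that a peak in the span can meet one by position alone. The peaks in turn covered 48.2% of the Gas5 span and 17.9% of the Snhg1 span. Whether more snoRNA genes were overlapped than this cover would give was not tested.

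Snhg3 (U17HG), the host of the H/ACA RNAs Snora73a and Snora73b, which act in processing of the ribosomal RNA precursor, had 1 peak (chromosome 4, gene 132351933 to 132353686, minus strand). It lay 0.517 kb past the 3' end (132351029 to 132351802, score 12.6) and was the widest of the 20, at 774 bp. It overlapped no annotated gene. Snhg12, host of Snora16a, Snora44, Snora61 and Snord99, lies 40.9 kb away on the same chromosome (132308678 to 132311024, plus strand). Its 1 peak (132315798 to 132316009, score 9.00) lay 4.88 kb past the 3' end, close to the limit of the rule. That peak is inside Trnau1ap, a gene of selenocysteine incorporation on the opposite strand, and no other host peak lay as far from its gene.

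Snhg5, host of U50 snoRNAs, had a pair of peaks, 1 at each end (chromosome 9, 88521052 to 88522897, minus strand). The peak at the 5' end (88522721 to 88522857, score 5.22) was centred 108 bp after the start site, the closest of the 20 peaks to a start. The peak past the 3' end (score 3.44) lay 0.433 kb from it. Both were among the 8 host peaks in the lowest quartile of all scores, and the host's highest score was the lowest of the 7. Snhg8, host of Snora24, had 1 peak 1.56 kb past the 3' end (chromosome 3, 123505771 to 123506208, score 6.40; gene 123507552 to 123508336, minus strand). This peak lies in the 3' part of Prss12, a serine protease gene that runs towards Snhg8. Snhg6, host of Snord87, had 1 peak in its span (chromosome 1, 9942849 to 9943422, score 7.68; gene 9942025 to 9944118). It also lies in Mcmdc2, a gene of meiotic recombination that overlaps Snhg6 by 1582 bp. For these 3 hosts the peaks were single or low, and for Snhg6 and Snhg8 they were shared with a neighbouring gene.

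The host peaks were of modest score. They ran from 2.42 to 19.8 with a median of 7.03, against a median of 9.97 over the whole list. Of the 20, 5 reached the list's median and 1, at Gas5, its upper quartile of 19.0. Those at or above the median were 3 peaks of Gas5 and 1 each of Snhg1 and Snhg3. Peaks past the 3' end had a median score of 9.28 (2.42 to 19.8, 10 peaks) and peaks in the span one of 5.38 (2.62 to 14.6, 10 peaks), so both ranges overlap widely. Peaks of 1 host share a locus and are not replicates, and scores also depend on the local background. Host peaks were 135 to 774 bp wide, with a median of 291.5 bp against 216 bp in the list.

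**Figure D2:**
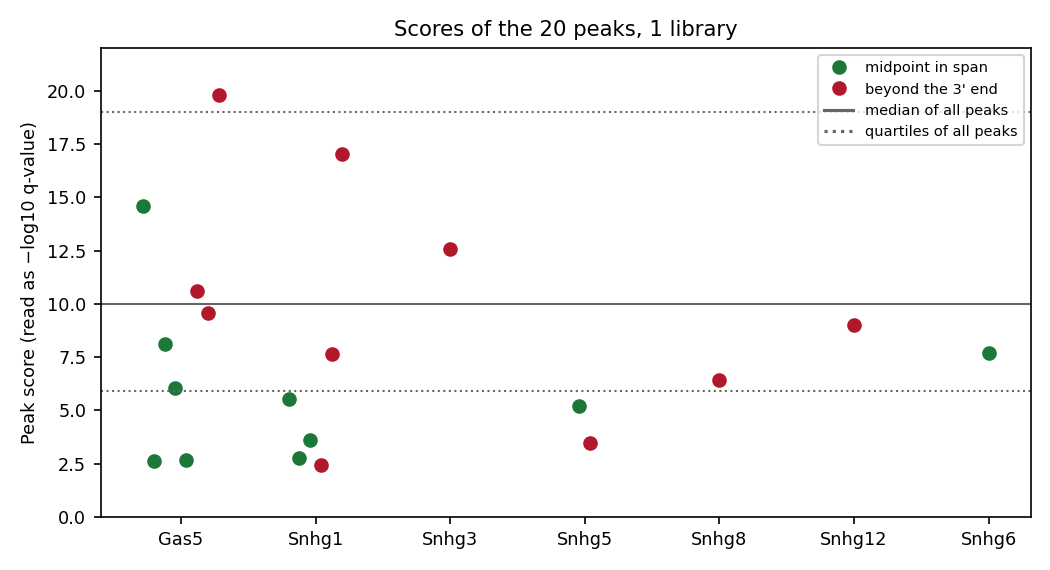
Score of each of the 20 peaks by host, in the direction of transcription from left to right within a host; green points lie in the span, red points beyond the 3' end, and lines give the median and quartiles of all 12181 peaks. Only 5 points reach the median of 9.97, and the highest at Gas5 and Snhg1 are the last in their group.

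All 7 hosts had a peak, where 13.0% of all genes had one in the same window (6487 of 49939). The share was 11.6% of lncRNA genes and 18.3% of protein-coding genes. Long genes meet more peaks, and among genes no longer than Gas5 the share was 6.42%, or 7.66% of lncRNA genes of that size. The exact 95% interval of 7 of 7 runs from 59.0 to 100%, for counting error only. The hosts' median highest score was 9.00, against 11.3 over all genes with a peak. With the peaks at or above the list's median score, 3 of the 7 hosts kept a peak (Gas5, Snhg1 and Snhg3), beside 7.37% of all genes. With a window of 1 kb, 5 of 7 had a peak, beside 9.36%, and 3' peaks were left at 3 of the 6 hosts with a strand. Since the hosts were chosen with earlier results of these data known, the counts are a description.

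**Figure D3:**
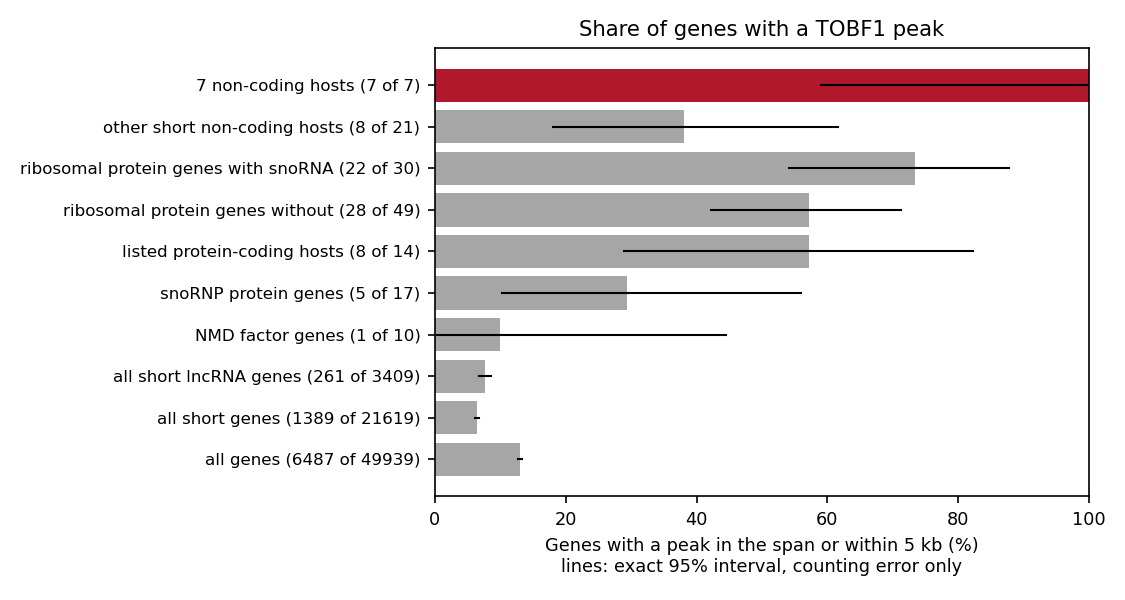
Percentage of genes with a peak midpoint in the span or within 5 kb, by gene class, with exact 95% intervals as lines; short means no longer than Gas5. The 7 hosts stand at 100%, ribosomal protein genes with a snoRNA gene at 73.3%, those without one and the listed protein-coding hosts both at 57.1%, and all short genes at 6.42%.

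Some of the other non-coding hosts had a peak and some had none. Of 14 further non-coding hosts listed by name, 8 had a peak (57.1%). The highest scores were at Zfas1 (50.7), host of box C/D snoRNAs, and Snhg14 (40.8), the very long host of the imprinted snoRNA clusters. Dancr (8.61) and Snhg4 (4.97) followed. Snhg7, Snhg15, Snhg16 and Snhg17 scored between 2.34 and 3.78, while Snhg9, Snhg10, Snhg11, Snhg18, Snhg20 and Epb41l4aos had no peak. In the annotation used here, the spans of Snhg10 and Snhg20 hold no whole snoRNA gene. Taken from the annotation instead, 21 other features that are not protein-coding, no longer than Gas5, held a snoRNA gene, and 8 of them had a peak (38.1%, interval 18.1 to 61.6%). In this class 4 of 26 snoRNA genes were overlapped by a peak (15.4%, interval 4.36 to 34.9%). Peaks past the 3' end were seen at 7 of 16 genes with a strand and 5' peaks at 1. That 1 was Zfas1, whose 5' peak was its highest (50.7). The highest peak lay past the 3' end at 3 of the 8 genes with a peak, in the span at 4 and before the 5' end at 1.

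Protein-coding hosts also had peaks past the 3' end, most often the ribosomal protein genes, and 0 to 1.24% of their snoRNA genes were overlapped; the difference from the 7 hosts was not tested. Ribosomal protein genes that hold a snoRNA gene had a peak in 22 of 30 cases (73.3%), with Rps12 (20.1), Rpsa (16.3), Rps3 (13.4) and Rpl30 (12.5) as the highest. Of the 20 with a strand, 13 had a peak past the 3' end and 1 before the 5' end. Ribosomal protein genes without a snoRNA gene showed 23 of 38 and 1 of 38, so the 3' position was seen in ribosomal protein genes with and without snoRNAs. Of the snoRNA genes in ribosomal protein hosts, 0 of 59 were overlapped by a peak (exact 95% interval up to 6.06%). Few peaks could meet them: at the 20 with a strand, 5 peaks lay in the span, at 4 genes, and 30 past the 3' end. Among 14 listed hosts of other kinds, which include Rpsa, 8 had a peak, led by the snoRNP gene Nop58 (58.8) and the nucleolin gene Ncl (20.5), then Rpsa and Eif4a2 (9.84), a translation initiation helicase. In these, 0 of 36 snoRNA genes were overlapped (interval up to 9.74%). Rcc1, listed among them and without a peak, holds no whole snoRNA gene in the annotation used here. The 342 protein-coding genes other than ribosomal protein genes whose span holds a snoRNA gene are much longer, with a median span of 72114.5 bp, and 151 had a peak (44.2%). Of the 282 with a strand, 39.4% had a peak in the span, 8.87% past the 3' end and 2.84% before the 5' end, so here the span led. In this class 5 of 402 snoRNA genes were overlapped (1.24%, interval 0.405 to 2.88%), and 2 of the 5, Snord47 among them, also lie in Gas5.

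**Figure D4:**
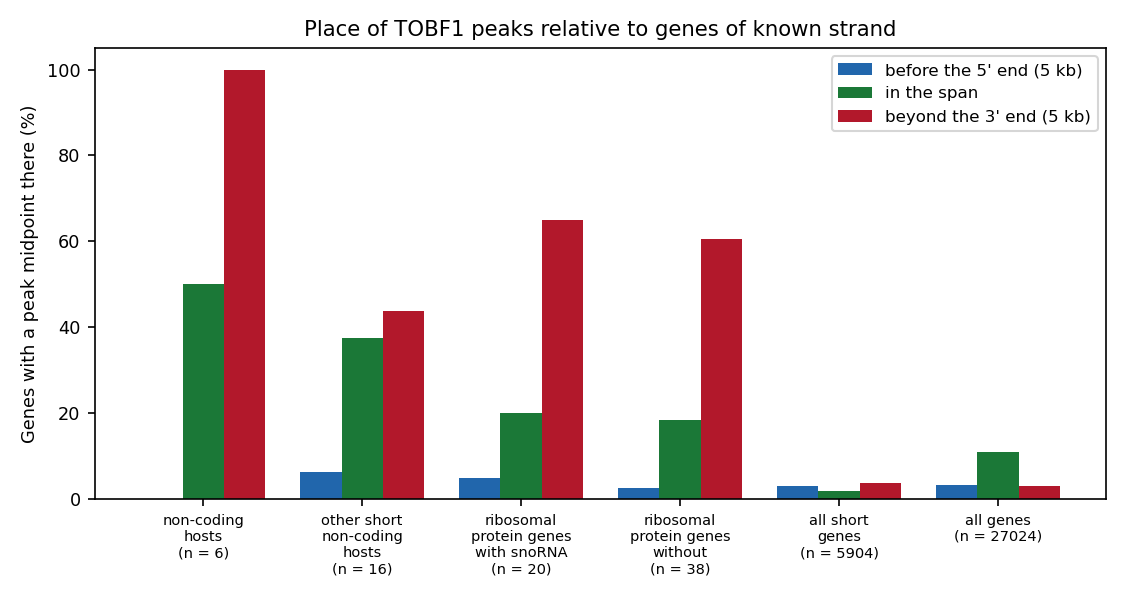
Percentage of genes with a known strand that had a peak midpoint within 5 kb before the 5' end, in the span, or within 5 kb beyond the 3' end; n is the number of genes. In the non-coding hosts and both groups of ribosomal protein genes the 3' share is the highest (100, 65.0 and 60.5%). It is also the highest in the other short non-coding hosts (43.8%) and, by little, in all short genes (3.69%, against 3.01% before the 5' end). Over all genes the 3' and 5' shares are close (3.15 and 3.22%).

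Genes whose products assemble with snoRNAs or act in NMD were counted in the same way. Of 17 genes for snoRNP core proteins and assembly factors, 5 had a peak (29.4%, interval 10.3 to 56.0%). These were Nop58 and Nop56 (4.91), box C/D core proteins and themselves snoRNA hosts, Snu13 (10.8), the protein that binds the box C/D motif, the assembly helicase Ruvbl1 (20.7), and Naf1 (4.94), an H/ACA assembly factor. The box C/D methyltransferase gene Fbl and the pseudouridine synthase gene Dkc1 had none. Of 10 genes of NMD factors, 1 had a peak (10.0%, interval 0.253 to 44.5%), and over both lists together 22.2% did. These counts stand beside 18.3% of all protein-coding genes, and the lists were not tested.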

How the data were processed

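ChIP-Seq peaks of tagged TOBF1 were analysed from 1 library. Per the submitters' processing notes, cutadapt, Bowtie2, MACS2 and bedtools were used on mm10. For versions, settings, the control of the peak call and sequencing depth, the notes used here say nothing. The authors deposited 1 score per peak, taken here to be the −log10 q-value of the caller from its lowest value of 1.30, just over −log10 of 0.05. Genes and start-site windows came from RefSeq tables of GRCm38.p6. Exons and introns were not used. Strand came from the windows; 22915 of 49939 genes had none. The 7 hosts, the gene lists and the annotation classes were chosen with earlier results of these data known. All 7 hosts with all their peaks were named, plus at most 4 genes per list by highest score; others named were chosen after their values were seen, and some results are not reported here. SnoRNA hosts by annotation are genes whose span holds a whole snoRNA gene on either strand. Intervals are exact (Clopper-Pearson, 95%) and treat genes as independent, although neighbours can share a peak and snoRNA genes of 1 host share a locus. Alternatives were windows of 1 and 10 kb, any overlap, peaks at or above the median score and merged peaks. Assignment was tested on simulated data. Python 3.11.15, NumPy 2.4.6, pandas 2.3.3, SciPy 1.17.1 and matplotlib 3.10.9 were used.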

Additional observations from a re-analysis of the deposited data

How the results depend on the processing

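All 7 hosts had a peak with a window of 10 kb, with any overlap and with merged peaks, and 5 had one within 1 kb of the span or of either end. No peak lay before a 5' end under any of these settings, nor with the higher-scoring part of the list.

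With a window of 1 kb, 4 peaks lay past a 3' end, at 3 hosts and a median of 0.545 kb, the hosts' median highest score was 7.68 and 9.36% of all genes had a peak. With a window of 10 kb, 16.6% of all genes had one. With peaks below the list's median score left out, 3 hosts had a peak, 5 peaks in all, 4 of them past a 3' end at 3 hosts, and the median highest score was 17.0. In that setting 14.5% of other non-coding hosts by annotation and 7.37% of all genes had a peak, instead of 25.5 and 13.0%. With peaks merged at gaps up to 1 kb there were 9 peaks at the hosts, 5 of them past a 3' end. Without the Gas5 and Snhg1 loci, a setting added after the data were seen, 6 peaks remained, 4 of them past a 3' end at 4 hosts, and the median highest score was 7.68. As background, 6.42% of genes no longer than Gas5, 11.6% of lncRNA genes and 18.3% of protein-coding genes had a peak. These changes follow from fewer or other peaks and genes being counted. No paired analysis was possible because the only library with a peak list has no partner, and no replicate could be left out. Depth is unknown, so a host without a peak in a given place may lie under the detection limit.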
